A study of Gallus gallus with 32 samples.

Results

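The fat line of chickens was followed from 3 to 5 weeks of age through RNA of the anterior pituitary gland. This change with age rests on the 4 arrays labelled fat line week 3 and the 4 labelled fat line week 5, which are 8 of the 32 arrays of the series, and it was read across all genes on the array. The whole design crossed a Fat and a Lean line with ages of 1, 3, 5 and 7 weeks, with 4 arrays in each of the 8 groups. The lines had been selected in opposite directions on the weight of abdominal fat for 7 generations, and both were reared under a standard broiler protocol. The arrays were spotted cDNA slides called Del-Mar 14K, on which amplified antisense RNA labelled with Cy3 was set against a Cy5-labelled pool made from all 32 samples. Each value is therefore a log2 ratio of a sample over 1 common pool, and a change is the week 5 mean minus the week 3 mean of that ratio. The labels name no treatment and give no sex. No dyes were swapped, so every array of both ages ran in the same orientation. The 4 arrays within a group are described by the submitters as biological replicates.

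The anterior pituitary secretes growth hormone, prolactin, thyrotropin, the gonadotropins and the peptides cut from proopiomelanocortin, each made by its own cell type under the control of hypothalamic factors and of feedback from the target glands. Endocrine cells of the gland pack their hormones with granins into secretory granules and cut the precursors with dedicated proteases. Between the endocrine cells lie folliculostellate cells, fibroblasts and a dense bed of capillaries, so RNA of the whole gland also holds transcripts of the vessel wall and of nucleated avian red blood cells.

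The 8 arrays had 14008 to 15897 usable spots of the 19200 on a slide, with a median Cy3 signal 3.68 to 9.02 times the local background. Week 5 replicate 1 was the dimmest of the 32 arrays, and its median quality score of 0.717 compares with 0.914 to 0.936 on the other week 5 arrays. Among probes picked by p, the replicate 2 arrays were most often the extreme ones. Of the 142 probes with lower values at week 5 and an unadjusted p under 0.05, week 3 replicate 2 was the lowest of the week 3 arrays for 63, against 21 to 31 for each other week 3 array. Of the 188 probes with higher values, week 5 replicate 2 was the highest of the week 5 arrays for 76, against 34 to 43 for each other. How often each array was the extreme one over all tested probes was not counted. The log2 ratios of all probes were spread less widely on replicates 1 and 2 than on replicates 3 and 4. Their median absolute deviation, scaled to match a standard deviation, was 0.23, 0.19, 0.40 and 0.36 on week 3 replicates 1 to 4. It was 0.19, 0.26, 0.38 and 0.37 at week 5. Whether this spread has a part in the values given by array below was not tested. Several values below are given with and without a single array. The probes of all 6 measured hormones gave Cy3 signals 6.39 to 134 times their background on these 8 arrays. They were thus read above background at both ages, though the lowest value lay within the 3.68 to 9.02 of the array medians.

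No probe changed past the threshold between 3 and 5 weeks in the fat line. Unless the replicate block is named, each p value below comes from a limma model over all groups that leaves replicate numbers out. An adjusted p is Benjamini-Hochberg adjusted over all tested probes. Of 14450 tested probes, 0 (0%) had a limma adjusted p under 0.05, and the smallest adjusted p was 0.0938. At an unadjusted p under 0.05 there were 330 probes (2.28%), of which 188 (1.3%) were higher and 142 (0.983%) lower at week 5. The share of 2.28% is below what a threshold of 0.05 passes on average when no probe changes. Their number alone therefore does not show a change. The higher probes made up 57.0% of the 330, 67.9% of 365 when arrays were only centred on their median, and 41.5% of 366 without week 3 replicate 2. The arrays of the 2 ages did not overlap for 159 probes (1.1%) that were higher and 109 (0.754%) that were lower. Each of the 5680 genes is represented below by its brightest tested probe. Among the genes, 109 (1.92%) had an unadjusted p under 0.05, again a share below that average. Of these, 53 (0.933%) were higher and 56 (0.986%) lower. The arrays of the groups did not overlap for 48 higher genes (0.845%) and 40 lower ones (0.704%). The median absolute log2 change was 0.064 for genes, beside a median standard error of 0.16. With the replicate number as a block, 1 probe passed, which has no gene symbol and is described below.

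Among the probes with the smallest p was one of OASL, an interferon-induced relative of the oligoadenylate synthetases that act against viruses. OASL had 5 tested probes, and 3 of them were high on most week 3 arrays and low at week 5. They are called A, B and C here from the brightest to the dimmest. Probe A read 1.25, -0.82, 0.67 and 0.43 on week 3 replicates 1 to 4 and -0.35, -1.08, -1.18 and -1.31 on week 5 replicates 1 to 4. Week 3 replicate 2 lay among the week 5 arrays and the other week 3 arrays lay above all of them, so the groups overlapped because of a single array. The change of probe A was -1.36 ± 0.46 (SE), a 2.57-fold lower mean ratio, with an unadjusted p of 0.0069. Probe B changed by -1.72 ± 0.54 and probe C by -2.17 ± 0.56, and their arrays fell in the same arrangement. The remaining OASL probes changed by -0.05 ± 0.10 and -0.09 ± 0.20. The 5 probes of this gene thus disagreed, and probe sequences, which would show the transcript each detects, were not used here.

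Without week 3 replicate 2, the change of probe C was -2.86 with an adjusted p of 0.0211, and that of probe A was -1.76 with an adjusted p of 0.486. Leaving that array out brought 4 probes past the threshold. Besides OASL probe C they were probes of DRG2, DHRS3 and GPM6B, for each of which week 3 replicate 2 was the lowest week 3 array and the nearest to the week 5 arrays or among them. Leaving out the lowest week 3 array of a lower probe enlarges its change by construction. The adjusted p values without that array are therefore no separate support for these probes. The DRG2 and DHRS3 probes, like OASL probes B and C, are not the brightest of their genes and were singled out after their values were seen. DRG2 encodes a GTP-binding protein of the developmentally regulated family. Its dimmer probe read 1.64, -1.69, 0.83 and 0.99 at week 3 and -1.38, -1.77, -1.39 and -1.48 at week 5. The change was -1.95 ± 0.53 with all arrays and -2.66 without week 3 replicate 2 (adjusted p 0.0211), while the brighter DRG2 probe changed by -0.02 ± 0.13.

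DHRS3, a retinaldehyde reductase that limits retinoic acid, had 3 probes. The one that stood out read 1.59, -1.22, 0.51 and 0.68 at week 3 and -1.52, -1.35, -0.79 and -0.93 at week 5, a change of -1.54 ± 0.40. It came to -2.07 without week 3 replicate 2 (adjusted p 0.0211). The other DHRS3 probes changed by 0.14 ± 0.16 and 0.06 ± 0.12, so this gene, too, had probes that did not move together.

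GPM6B, a proteolipid family membrane protein of neurons and glia, had the smallest p of all genes by their brightest probe. It read 1.18, -0.97, 0.64 and 0.28 at week 3 and -1.12, -1.25, -1.50 and -1.35 at week 5. All week 5 arrays lay below all week 3 arrays, with week 3 replicate 2 nearest to them. The change was -1.59 ± 0.40, with an unadjusted p of 0.000452 and an adjusted p of 0.866. Without week 3 replicate 2 it was -2.01 with an adjusted p of 0.049.

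ZNFX1, a helicase-like sensor of viral RNA known from mammals, read 1.61, -0.06, 0.93 and 1.02 at week 3 and -0.24, 0.11 and -0.18 on the 3 usable week 5 arrays. Again week 3 replicate 2 was within the week 5 range. The change was -0.98 ± 0.29 and reached -1.29 without that array, where the adjusted p was 0.076. LY6E, an interferon-induced surface protein, had a change of -0.66 ± 0.40 on its brightest probe, and week 3 replicate 2 at -0.57 was again far below the 0.42 to 0.54 of the other week 3 arrays. A dimmer LY6E probe changed by -0.50 ± 0.30 and another by -0.03 ± 0.12.

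The interferon and antigen presentation list had more lower than higher members, with a small median change. Of its 18 measured members, 0 passed the adjusted test, 13 were lower and 5 higher, and the median change was -0.03, against 0.00 over all genes. Array by array, the median of the list was 0.18, -0.03, 0.19 and 0.30 on week 3 replicates 1 to 4. At week 5 it was -0.04, 0.05, -0.24 and 0.11. Replicates 1, 3 and 4 were thus lower at week 5, and replicate 2 was not. OASL was the only member of this list with an unadjusted p under 0.05, against 1.92% of all genes. BF1, a classical class I major histocompatibility gene of the chicken, changed by -0.52 ± 0.29, and its other probes by -0.67 ± 0.38 and -0.89 ± 0.46. The transcription factor IRF1 changed by -0.22 ± 0.15 on its brightest probe and by 0.45 ± 0.23 on another. On the former, all week 3 arrays (0.06 to 0.31) lay above all week 5 arrays (-0.18 to 0.05).

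Across the 4 ages of the fat line, OASL probe A went from a mean of 0.48 ± 0.38 (SD) in week 1 to 0.38 ± 0.87 in week 3, -0.98 ± 0.43 in week 5 and -1.19 ± 0.50 over the 3 arrays used for week 7. GPM6B averaged 0.58 ± 0.47, 0.28 ± 0.91, -1.31 ± 0.16 and -1.31 ± 0.36 at the same ages. The week 3 spread was the widest of the 4 ages for both, and these steps share arrays with each other.

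**Figure D1:**
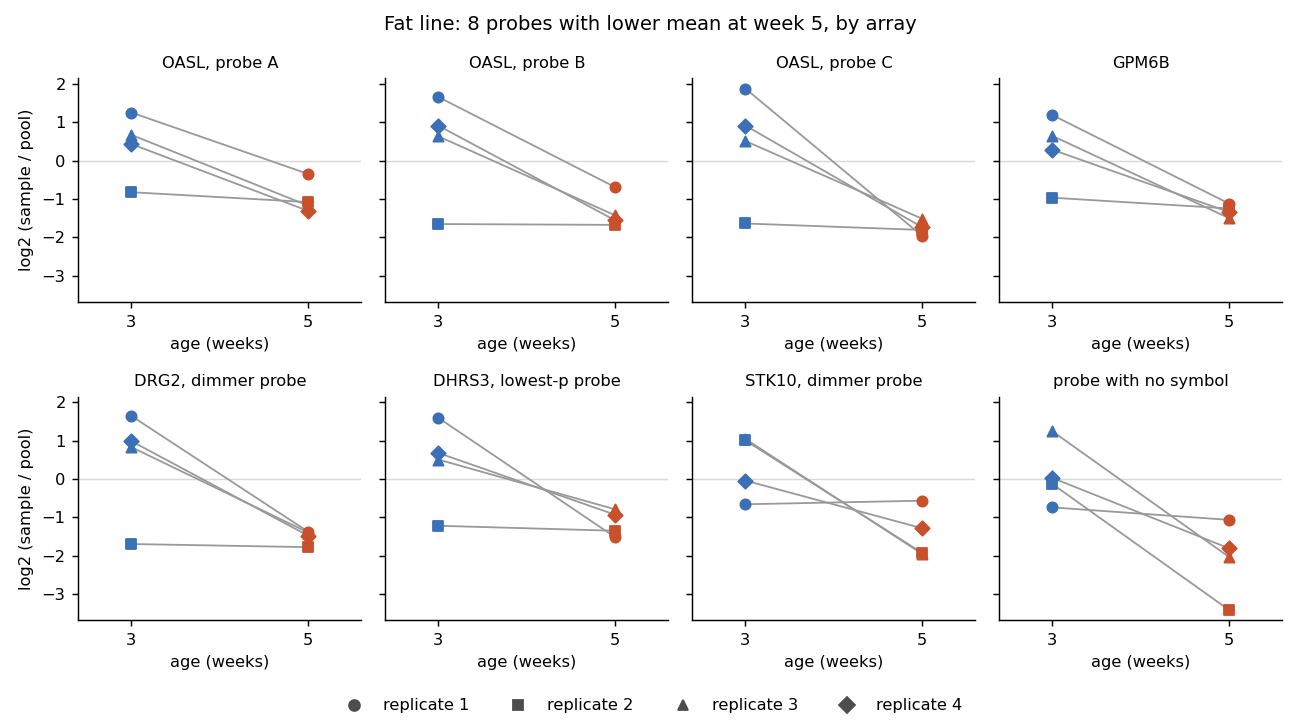
Log2 ratio of sample over pool (y axis) at 3 and 5 weeks of age (x axis) for 8 probes of the fat line, with 1 point per array, a symbol for each replicate number and grey lines joining arrays of the same number. In the OASL, GPM6B, DRG2 and DHRS3 panels week 3 replicate 2 (square) sits at or near the week 5 arrays, as at -1.64 for OASL probe C, while in the last 2 panels replicate 1 (circle) moves least.

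The smallest p values of all belonged to a dimmer probe of STK10 and to a probe with no gene symbol. STK10 is a serine/threonine kinase best known in lymphocytes. Its probe read -0.66, 1.01, 1.04 and -0.04 at week 3 and -0.56, -1.93, -1.95 and -1.28 at week 5. Replicates 2, 3 and 4 were lower at week 5 and replicate 1 was not, so week 3 replicate 1 lay just below week 5 replicate 1. The change was -1.77 ± 0.33, with an unadjusted p of 1.26e-05 and an adjusted p of 0.0938. The brighter STK10 probe changed by 0.11 ± 0.19.

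The probe with no symbol read -0.74, -0.13, 1.24 and 0.03 at week 3 and -1.06, -3.42, -2.04 and -1.81 at week 5, and the groups did not overlap. Its change was -2.18 ± 0.41 with an adjusted p of 0.0938, and -2.18 ± 0.36 with an adjusted p of 0.0485 with the replicate block. Both probes passed without week 3 replicate 1 (adjusted p 0.00761 for STK10 and 0.0284 for the other) and without week 5 replicate 1 (0.0133 for each). For both probes the former was the lowest week 3 array and the latter the highest week 5 array. Leaving out either enlarges the change by construction, so these adjusted p values are no separate support. From the youngest to the oldest age, the STK10 probe averaged 1.66 ± 0.25 (SD), 0.34 ± 0.83, -1.43 ± 0.66 and -1.01 ± 0.25 in the fat line, and the probe with no symbol averaged 2.01 ± 0.25, 0.10 ± 0.83, -2.08 ± 0.98 and -1.41 ± 0.56. For both probes the week 1 mean was above the week 3 mean.

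These 2 probes occupied the same place, row 9 and column 5, in grid blocks 28 and 25 of the slide. Of the 44 tested probes at that place, 22 were lower at week 5, 4 of them at an unadjusted p under 0.05, against 0.983% of all tested probes. The place was looked at because these 2 probes lie there, so 2 of the 4 were given in advance. The median change over the 44 was -0.01. The other 2 of the 4 were TOP2A in block 27, at -0.65 ± 0.24, and PAICS in block 24, at -0.42 ± 0.20. PAICS, an enzyme of purine synthesis, was singled out here after its value was seen. Whether the place on the slide has a part in these values was not tested.

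Of the 20 probes with the smallest p, 13 carried a gene symbol and 10 of these belonged to a gene with another tested probe. For 1 of those 10 genes, OASL, another probe was also lower or higher in the same direction at an unadjusted p under 0.05. Of these 20 probes, 13 were lower and 7 higher at week 5. Among the higher were dimmer probes of UBR7 (0.63 ± 0.15), CAPN6 (1.01 ± 0.26) and FLII (1.18 ± 0.33), singled out after their values were seen. The brightest probes of these genes changed by -0.07 ± 0.12, -0.22 ± 0.62 and 0.01 ± 0.13. Below, a gene is described by its brightest probe, and other probes are given for some genes.

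A lower gene with a wide gap between the ages was SNTB1, a syntrophin that links the dystrophin complex to signalling proteins. It read 1.07, 0.88, 0.92 and 0.72 at week 3 and -0.16, 0.45, 0.22 and 0.24 at week 5. Every week 3 array lay above every week 5 array. The change was -0.71 ± 0.22 with an unadjusted p of 0.00275. FCHO2, which starts clathrin-coated pits, changed by -0.52 ± 0.18, and here week 3 replicate 2, at 0.06, was once more within the week 5 range of -0.13 to 0.34. HSD17B13, a lipid droplet protein known from mammalian liver, changed by -0.87 ± 0.30 on its brighter probe and by -0.09 ± 0.21 on its dimmer one.

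MANSC1, a membrane protein, changed by -0.52 ± 0.18, and its week 3 mean was drawn up by replicate 1 at 0.87 beside -0.04 on the other usable arrays. SETD7, a lysine methyltransferase, changed by -0.97 ± 0.33 on 3 usable week 5 arrays, which ranged from -1.56 to -0.15. ALCAM, an adhesion molecule of the immunoglobulin family, changed by -1.47 ± 0.51, but its 2 groups overlapped and the value was -0.96 without week 3 replicate 3. The lowest Cy3 signals of SETD7 and ALCAM on these arrays were 1.71 and 1.41 times the background.

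Red blood cell transcripts were lower at week 5 for both globin genes measured, without passing the adjusted test. HBBA, an adult beta globin, read -0.25, 0.00, 0.59 and -0.10 at week 3 and -0.29, -0.69, -0.96 and -0.86 at week 5. The groups did not overlap, although replicate 1 barely moved, and the change was -0.76 ± 0.22 with an unadjusted p of 0.00192. HBA1, an alpha globin, changed by -0.35 ± 0.21. Of 10 measured red blood cell genes, 7 were lower and 3 higher, with a median of -0.06. HBBA alone had an unadjusted p under 0.05, against 1.92% of all genes. The median of the list on single arrays ran from -0.21 to -0.01 at week 3 and from -0.43 to 0.06 at week 5. SLC4A1, the anion exchanger of the red cell membrane, changed by -0.10 ± 0.19, and ALAS1, the general enzyme that starts haem synthesis, by -0.10 ± 0.15. HBBA had averaged 1.39 ± 0.29 at week 1 and was -0.91 ± 0.62 at week 7. In RNA of a whole gland, fewer cells of a type and less RNA per cell cannot be told apart.

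Genes of cell division were lower at week 5 more often than higher. Of 22 measured members of the cell cycle and DNA replication list, 0 passed the adjusted test, 16 were lower and 6 higher, and 4 were lower at an unadjusted p under 0.05, against 0.986% of all genes. The list's median was -0.11, against 0.00 over all genes, and stayed negative in all 31 alternative settings. It ran from -0.144 to -0.0388 when arrays were left out, with the value nearest to 0 without both replicate 3 arrays. These settings reuse the same arrays, and members of a list can vary together between arrays. The lists were also chosen with earlier results of these data known, so neither the count nor the sign is separate support. TOP2A, the topoisomerase that untangles replicated chromosomes, read -0.20, -0.14, 0.58 and 0.00 at week 3 and -0.04, -0.42, -1.01 and -0.88 at week 5. Replicate 1 did not go down and the others did, and the change was -0.65 ± 0.24 with an unadjusted p of 0.0108, or -0.33 without both replicate 3 arrays. A second TOP2A probe changed by -0.27 ± 0.21. The probe read array by array here is the one that shares its place on the slide with the STK10 probe.

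PBK, a mitotic kinase, read 0.02, 0.47, 0.69 and 0.48 at week 3 and -0.03, -0.03, -0.17 and 0.00 at week 5, a change of -0.47 ± 0.20 with groups that did not overlap. CCNB1, the cyclin of entry into mitosis, changed by -0.45 ± 0.20. RRM2, the regulated subunit of ribonucleotide reductase, changed by -0.59 ± 0.29. In the lean line 19 of the 22 genes were lower, with a median of -0.20, and all 4 of these genes had negative values there too. Array by array, the median of the list was -0.04, 0.00, 0.38 and 0.11 on week 3 replicates 1 to 4. At week 5 it was -0.04, 0.02, -0.12 and -0.08. Replicates 3 and 4 were thus lower at week 5, and replicates 1 and 2 were not.

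Genes of fibroblasts and extracellular matrix were lower for 17 of 26 members and higher for 9, against 50.5% of all genes higher, and their median change was -0.05. None passed the adjusted test, and 3 were lower at an unadjusted p under 0.05, against 0.986% of all genes. As with the cell cycle list, members were chosen with earlier results of these data known, so the count is no separate support. MFAP5, a microfibril protein, read 0.14, 0.07, 0.18 and 0.35 at week 3 and 0.03, -0.08, -0.02 and -0.32 at week 5, so all week 3 arrays were above all week 5 arrays, and the change was -0.28 ± 0.11. COL1A2, a chain of type I collagen, changed by -0.57 ± 0.25 with overlapping groups. MGP, the matrix inhibitor of calcification, changed by -0.75 ± 0.34, a value that came to -0.34 without week 5 replicate 2. In the opposite direction OGN, a small leucine-rich proteoglycan, changed by 0.41 ± 0.22.

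Among 12 measured markers of glia, pituicytes and folliculostellate cells, GPM6B and GLUL were lower at an unadjusted p under 0.05, that is 2 of 12, against 0.986% of all genes. This list, too, was chosen with earlier results of these data known, so the count is no separate support. GLUL, glutamine synthetase, read 0.49, 0.23 and 0.36 on its usable week 3 arrays and -0.06, 0.11, -0.78 and 0.01 at week 5. The change was -0.54 ± 0.24, or -0.34 without week 5 replicate 3. The other markers did not go the same way, since 7 of the 12 were higher and the median was 0.04. SOX10, a transcription factor of neural crest derived glia, changed by 0.37 ± 0.23 and, on another probe, by -0.09 ± 0.25, and CLU, clusterin, by 0.20 ± 0.17.

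Of the 10 higher genes with the smallest p, 6 had groups that did not overlap, against 0.845% of all genes. The same held for 6 of the 10 lower ones, against 0.704%. These genes were chosen by their p on the same arrays, so separated groups are what that choice favours. HGF, the ligand of the MET receptor, read 0.05, -0.28, 0.11 and -1.16 at week 3 and 0.68, 1.58, 0.52 and -0.03 at week 5. All 4 same-numbered pairs were higher at week 5, although week 5 replicate 4 lay below 2 of the week 3 arrays. The change was 1.01 ± 0.29, a 2.01-fold higher mean ratio, with an unadjusted p of 0.00191, and its adjusted p was 0.728 with the replicate block. Its Cy3 signal was only 1.85 to 2.98 times the background, so this gene was measured close to the lower end of the range.

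HERC3, a ubiquitin ligase, read -0.37, -0.48, -0.68 and -0.55 at week 3 and 0.29, -0.02, 0.70 and -0.28 at week 5. All week 5 arrays lay above all week 3 arrays, and the change was 0.69 ± 0.24. STEAP2, a metalloreductase of iron and copper, changed by 0.60 ± 0.21 on 3 usable week 3 arrays without overlap, and a second probe by 0.15 ± 0.37. ISCU, the scaffold on which iron-sulfur clusters are built, had a tight spread and a Cy3 signal 7.42 to 27.8 times the background. It read -0.06 to 0.03 at week 3 and 0.12 to 0.46 at week 5, a change of 0.24 ± 0.08. A second ISCU probe changed by 0.20 ± 0.32.

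DRG1, a GTP-binding protein related to DRG2, changed by 0.44 ± 0.16, with week 5 arrays from 0.18 to 0.93 above all week 3 arrays, while a second probe changed by 0.01 ± 0.17. KALRN, which binds a peptide-amidating enzyme of secretory granules, changed by 0.50 ± 0.19 and also did not overlap. TP53INP1, a stress-induced target of p53, changed by 0.55 ± 0.20, or 0.35 without week 5 replicate 1. TTC30B, a part of the transport system of cilia, changed by 0.49 ± 0.18. P2RX4, an ATP-gated ion channel, changed by 0.46 ± 0.17, or 0.25 without week 5 replicate 2.

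A single array carried the value of MTMR12. This gene, which encodes an inactive relative of the myotubularin phosphatases, read 0.73, 4.43, 0.31 and 0.40 at week 5 and -0.31 to 0.07 at week 3. Its change of 1.61 ± 0.51 became 0.62 without week 5 replicate 2. CAV2, a caveolin of endothelial cells, behaved likewise on another array. It read 0.71, 0.30, 0.69 and 4.91 at week 5 and 0.38 to 0.71 at week 3, and its change of 1.17 ± 0.54 became 0.09 without week 5 replicate 4, and a second CAV2 probe changed by 0.07 ± 0.21. Of the 19 measured endothelial and pericyte markers, 11 were higher and 8 lower, with a median of 0.01.

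**Figure D2:**
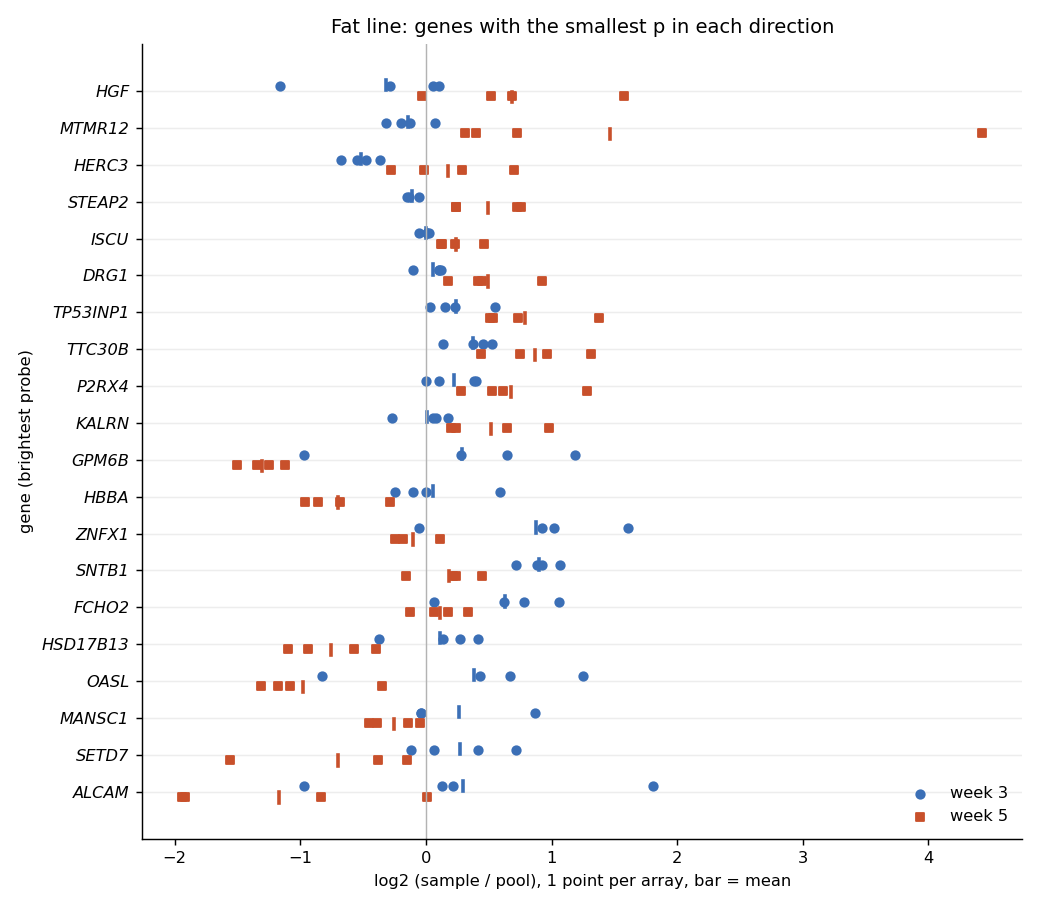
Log2 ratio of sample over pool (x axis) for the 10 higher and 10 lower genes (y axis) with the smallest unadjusted p in the fat line, with 1 point per array at week 3 (circles) and week 5 (squares) and a bar at each mean. The arrays of the 2 ages do not overlap for 12 of the 20 genes, which were chosen by p on the same arrays. Over all genes the shares without overlap were 0.845% (higher) and 0.704% (lower). A single array at 4.43 sets the week 5 mean of MTMR12.

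The hormones themselves showed no change that exceeded the spread between arrays. Of 6 measured hormone genes, 0 had an unadjusted p under 0.05, and the half-widths of their 95% confidence intervals ran from 0.27 to 1.02 on the log2 scale. Growth hormone (GH) read -0.01, 0.15, -1.07 and -0.71 at week 3 and 0.22, -0.87, -0.73 and -0.70 at week 5, a change of -0.11 with an interval from -0.77 to 0.55. The 4 week 3 arrays were split between replicates 1 and 2 near 0 and replicates 3 and 4 far below, and at week 5 only replicate 1 was near 0. Prolactin (PRL) read -0.22, 0.05, -0.01 and 0.00 at week 3 and 0.37, -0.34, -0.51 and -0.61 at week 5. Replicates 2, 3 and 4 were lower at week 5 and replicate 1 was higher, and the change was -0.23 with an interval from -0.74 to 0.29, or -0.44 without week 5 replicate 1.

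FSHB, the specific chain of follitropin, had the widest spread of the hormones. It read -0.44, -0.93, -0.14 and 0.23 at week 3 and 0.67, -1.41, 1.38 and -0.34 at week 5, with 2 pairs higher and 2 lower at week 5. The change was 0.39, with an interval from -0.63 to 1.41. TSHB, the specific chain of thyrotropin, read 0.50, -0.43, 0.34 and -0.99 at week 3 and 0.58, -0.14, -0.74 and -0.38 at week 5, a change of -0.03 with an interval from -0.75 to 0.69. CGA, the chain that thyrotropin and the gonadotropins share, changed by 0.19, with an interval from -0.46 to 0.84, and week 5 replicate 1 at 0.41 was the highest array of the 8. POMC, the precursor of corticotropin, changed by 0.06, and its interval from -0.21 to 0.33 was the narrowest. The intervals of all 6 genes include 0 and reach at least 0.21 on either side of it on the log2 scale, so these arrays do not show that the hormones stayed level.

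**Figure D3:**
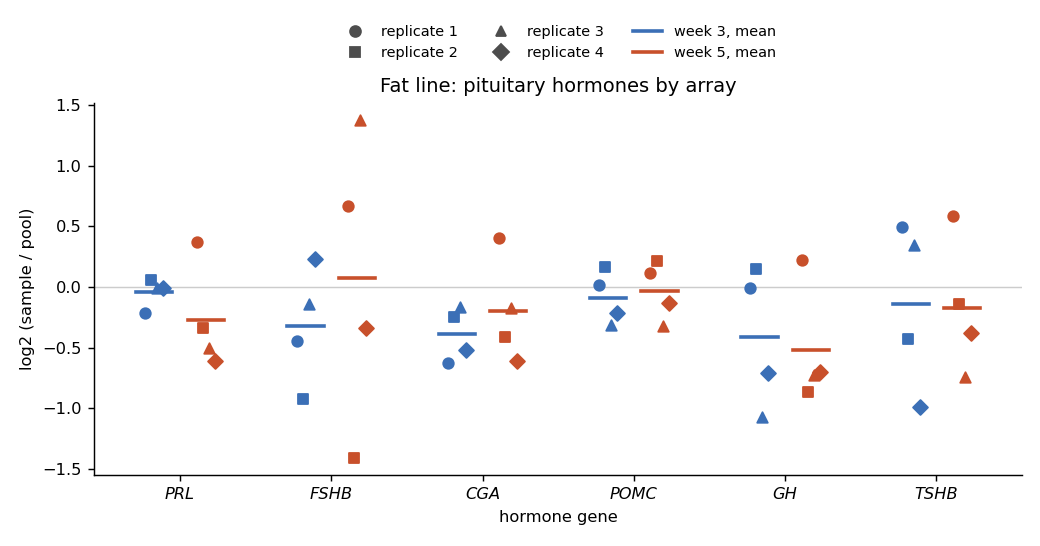
Log2 ratio of sample over pool (y axis) for 6 hormone genes (x axis), with 1 point per array of the fat line, a symbol for each replicate number and a bar at the mean of week 3 (left) and week 5 (right). The ages overlap for every hormone, and FSHB runs from -1.41 to 1.38 within week 5.

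Receptors through which the hypothalamus and the target glands act on the gland included none that passed the test. Of 12 measured, 8 were higher and 4 lower, against 50.5% of all genes higher, with 0 at an unadjusted p under 0.05. The median of 0.08 was -0.0126 without both replicate 4 arrays. CRHR2, a receptor of corticotropin-releasing peptides, had the largest value at 0.69 ± 0.58, and its week 3 arrays alone ran from -1.80 to 0.73. LEPR, the leptin receptor, changed by 0.27 ± 0.30, with a single week 5 array at 1.49, and a second LEPR probe changed by -0.37 ± 0.24. GHRHR, the receptor of growth hormone-releasing hormone, changed by 0.13 ± 0.18, and RXRG, a retinoid receptor that pairs with thyroid hormone receptors, by 0.09 ± 0.13 on its brighter probe and -0.34 ± 0.29 on another.

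Transcription factors of the pituitary lineages were balanced, with 6 of 10 higher, a median of 0.03 and 0 at an unadjusted p under 0.05. NEUROD1, a factor of corticotropes, changed by -0.21 ± 0.19. EGR1, which mediates the action of gonadotropin-releasing hormone, changed by -0.22 ± 0.29, and NR0B1, a repressor in gonadotropes, by 0.14 ± 0.20. CREM, which answers to cyclic AMP, changed by 0.07 ± 0.13.

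The granule proteins and prohormone enzymes had 8 genes higher and 8 lower, with a median of 0.01. SCG2, the granin also called secretogranin II, was the only one of the 16 at an unadjusted p under 0.05, against 1.92% of all genes. It read 0.53, 0.71, 0.36 and 0.73 at week 3 and 0.36, 0.08, 0.34 and 0.38 at week 5. All 4 pairs were lower at week 5, though week 3 replicate 3 lay at the level of the week 5 arrays, and the change was -0.29 ± 0.13. SCG3 went the other way at 0.31 ± 0.24, and the carboxypeptidase CPE changed by -0.16 ± 0.14. In the secretion machinery 4 of 9 measured genes were higher and 5 lower, with the vesicle fusion ATPase NSF at -0.21 ± 0.14 and the small GTPase RAB3B at -0.20 ± 0.17.

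Of the signalling lists, growth factor, IGF and TGF beta signalling had 13 of 21 genes higher and a median of 0.04. TGFBR1, the type I receptor of TGF beta, was its only member at an unadjusted p under 0.05, against 1.92% of all genes. It read -0.12, -0.35, -0.37 and -0.05 at week 3 and 0.10, 0.34, 0.18 and -0.02 at week 5, a change of 0.37 ± 0.17 with groups that did not overlap. IGFBP7, a secreted binding protein, changed by 0.34 ± 0.22, TGFB2 by 0.31 ± 0.21 and ID3, an inhibitor of differentiation factors, by -0.28 ± 0.21. Thyroid hormone action had 7 of 9 genes higher and a median of 0.09, led by the coactivator NCOA1 at 0.37 ± 0.25. In G protein and cyclic AMP signalling 13 of 25 genes were higher, and the largest value was that of the adenylate cyclase ADCY2 at -0.78 ± 0.75, whose week 5 arrays ran from -1.26 to 1.41.

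Cytosolic ribosomal proteins had small values. Of 45 measured, 37 were higher and 8 lower at week 5, against 50.5% of all genes higher, and the median was 0.06. None had an unadjusted p under 0.05, and RPL23 (0.16 ± 0.12), RPS12 (0.18 ± 0.14) and RPL8 (0.15 ± 0.12) were typical of those with the smallest p. The median of the list on single arrays overlapped between the ages, from -0.02 to 0.19 at week 3 and from -0.05 to 0.29 at week 5. In the lean line 18 of the 45 were higher and the median was -0.01. The members of such a list are not independent, since transcripts of one complex vary together between arrays.

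Cholesterol and isoprenoid synthesis had 15 of 20 genes higher and a median of 0.08. The enzymes FDFT1 (0.33 ± 0.23) and LSS (0.17 ± 0.10) and the regulator SREBF2 (0.21 ± 0.13) were higher, MVK (-0.14 ± 0.09) was lower, and 0 had an unadjusted p under 0.05. On single arrays the median of this list ran from -0.14 to -0.05 at week 3 and from -0.05 to 0.07 at week 5. Fatty acid metabolism and adipokine signals had 13 of 24 genes higher and a median of 0.00, with the adiponectin receptor ADIPOR1 at 0.39 ± 0.33 and the fatty acid carrier FABP5 at 0.25 ± 0.21. Heat shock proteins and cytosolic chaperones had 15 of 21 genes lower and a median of -0.05, with the chaperonin subunit CCT4 at -0.18 ± 0.09 and, on another probe, 0.00 ± 0.10. Of 26 genes of endoplasmic reticulum folding, 16 were higher, while HSPA5, its main chaperone, changed by -0.28 ± 0.15 (-0.06 ± 0.23 on another probe) and SEC61B, a subunit of its import channel, by 0.17 ± 0.09.

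Oxidative phosphorylation (41 genes), the proteasome (30), splicing factors (24), glycolysis and the citrate cycle (26) and developmental signalling (12) all had medians between -0.03 and 0.00. Clock genes had 8 of 9 higher, with values from -0.08 to 0.08, and immediate early genes had 5 of 7 lower with a median of -0.05. The 8 genes of the glucocorticoid response had a median of 0.03. None of these 8 lists held a gene with an unadjusted p under 0.05.

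Markers of other cells were near the level of all genes. Of 17 measured markers of lymphocytes and macrophages, 9 were lower and the median was -0.01, with the complement chain C1QC at -0.43 ± 0.22 and the B cell kinase BTK at -0.26 ± 0.21. Of 16 markers of neurons and the neurohypophysis, 10 were higher and the median was 0.04. Of 19 markers of muscle, cartilage and bone, 12 were higher and the median was 0.04. No marker of these 3 lists had an unadjusted p under 0.05. With the replicate block, C1QC (unadjusted limma p 0.0288) and the cardiac actin ACTC1 (a change of 0.21, with p 0.0483) were under 0.05, as were CCT4 (0.0392) and HSPA5 (0.0427) of the chaperone lists, with adjusted p values of 1.00. The block brought 2.34% of all genes under 0.05. The 14 markers of pituitary endocrine cells had a median of 0.04, with 8 higher.

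**Figure D4:**
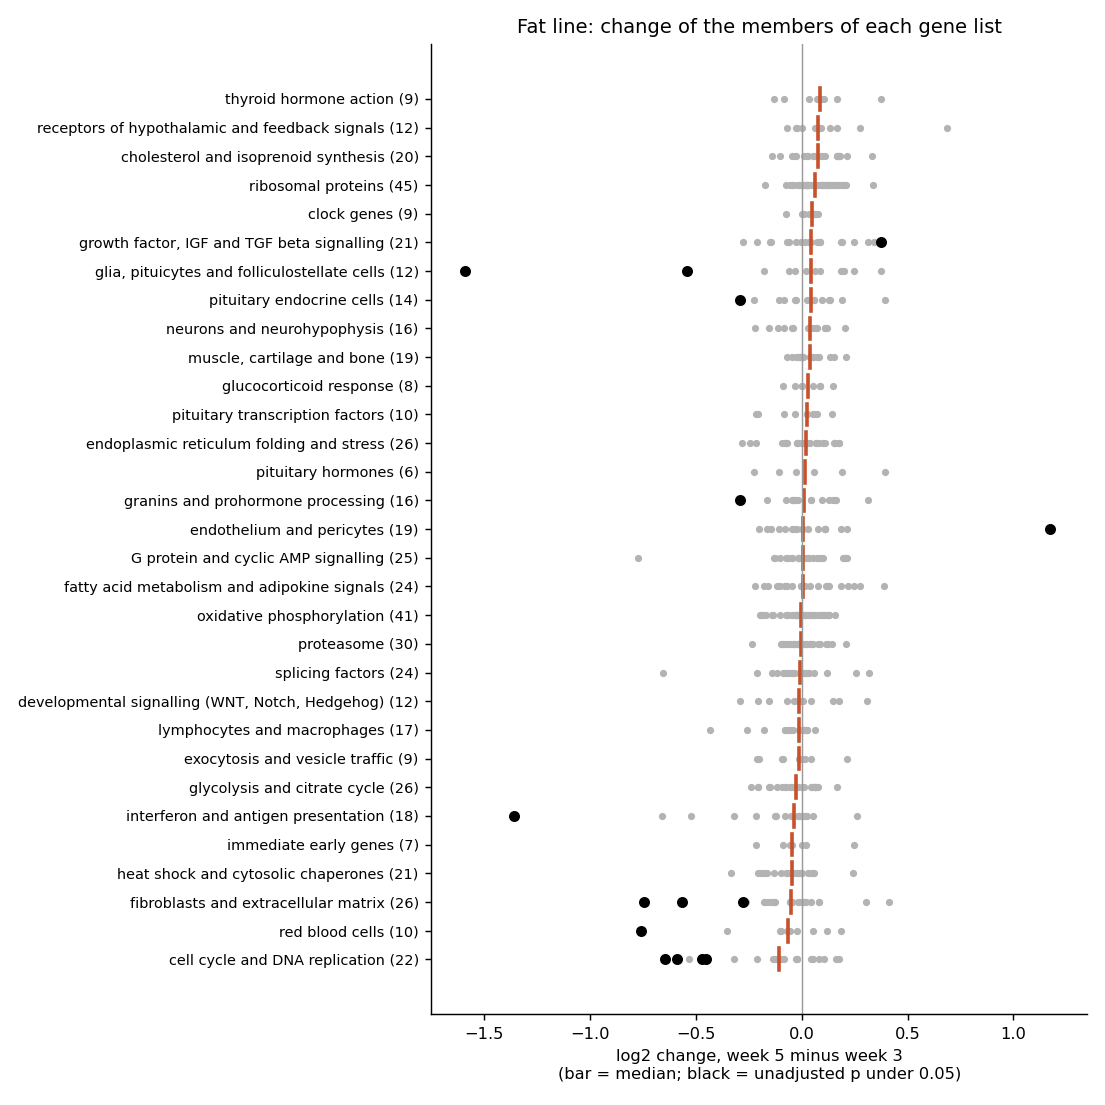
Log2 change from week 3 to week 5 in the fat line (x axis) of every measured member of 31 gene lists (y axis, number of measured genes in parentheses), with an orange bar at each list's median and black points for genes with an unadjusted p under 0.05. The medians span -0.11 for cell cycle genes to 0.09 for thyroid hormone action, and GPM6B at -1.59 and OASL at -1.36 lie farthest from 0.

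The lean line, measured on other arrays at the same ages, served to ask whether the change differed between the lines. For the fat change minus the lean change, 0 of 14450 probes (0%) had an adjusted p under 0.05, and 150 probes (1.04%) and 37 genes (0.651%) had an unadjusted p under 0.05. Both unadjusted shares are below what that threshold passes on average when nothing differs. Of the 142 probes that were lower in the fat line, 98 (69%) were also lower in the lean line, against 51.7% of all tested probes. Of the 188 that were higher, 127 (67.6%) were also higher in the lean line, against 48.3% of all probes. These shares describe the same arrays as above, and the 2 lines share no array.

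Several of the probes with large negative values had them in both lines. GPM6B changed by -1.60 in the lean line against -1.59 in the fat line, and the difference of 0.01 had a 95% interval from -1.14 to 1.16. OASL probe A changed by -1.96 in the lean line and ZNFX1 by -0.93. Single lean arrays lay apart as well. Lean OASL probe A read 0.73, 1.24, -0.83 and 0.71 at week 3 and -0.56, -3.27, -1.32 and -0.83 at week 5. Lean GPM6B read 0.52, 0.91, -1.07 and 0.75 at week 3 and -0.61, -2.35, -1.12 and -1.21 at week 5. For both probes lean week 3 replicate 3 lay within the lean week 5 range, and lean week 5 replicate 2 was the lowest array. In the lean line STK10's dimmer probe changed by -1.27 and the probe with no symbol by -1.61. Among the 10 lower genes by smallest p, 8 were lower in the lean line too, and the exceptions were SETD7 (0.04) and ALCAM (0.37).

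The higher genes were closer to 0 in the lean line, with a median of 0.04 over the 10 genes, although they had been chosen for their value in the fat line. HGF changed by -0.04 in the lean line, a difference of 1.05 with an interval from 0.20 to 1.89 and an unadjusted p of 0.0178. For HERC3 the lean change was -0.17 and the difference 0.86, with an unadjusted p of 0.0166. Neither passed the adjusted test. Over all genes the smallest p of the difference belonged to DCAF8, a substrate receptor of a ubiquitin ligase, which changed by -0.07 in the fat line and by 0.76 in the lean line (unadjusted p 0.00366). ATP6V0A2, a subunit of the vesicular proton pump, changed by -0.26 and 0.21 (p 0.00545 for the difference, unadjusted). ACOT11, an acyl-CoA thioesterase, changed by 0.32 and -0.40 (unadjusted p 0.0105). Without both replicate 2 arrays the differences of ATP6V0A2 and ACOT11 shrank from -0.48 to -0.32 and from 0.72 to 0.44.

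**Figure D5:**
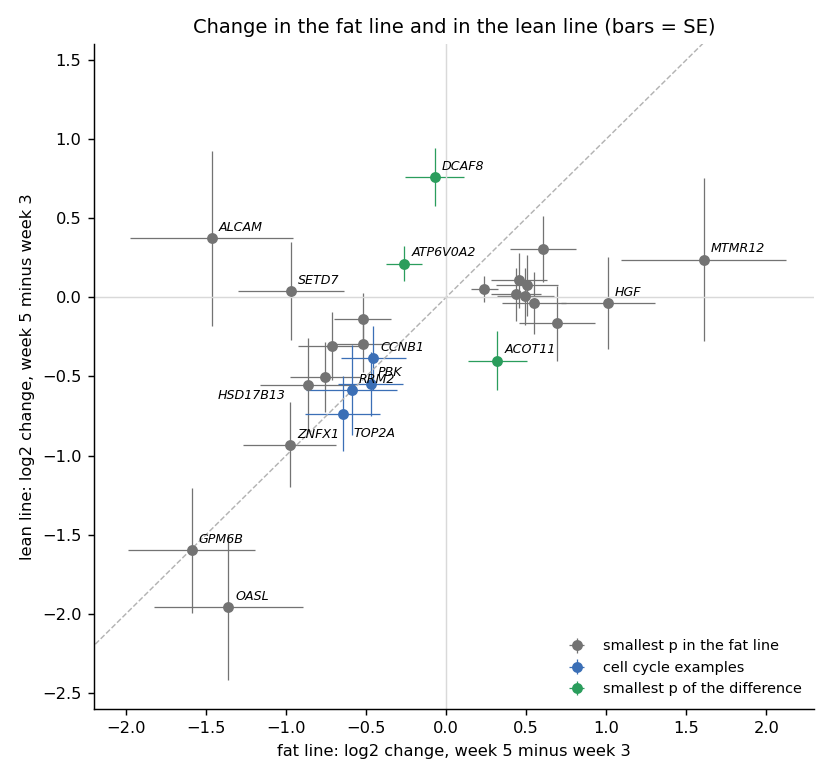
Log2 change from week 3 to week 5 in the fat line (x axis) against the lean line (y axis), with standard errors as bars, for the 20 genes with the smallest p in the fat line (grey), 4 cell cycle genes (blue) and 3 genes with the smallest p of the difference (green). GPM6B at -1.59 and -1.60 and the cell cycle genes lie near the dashed line of equal change, and HGF at 1.01 and -0.04 lies near the horizontal line of no lean change.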

How the data were processed

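Each array has a deposited file made with TIGR Spotfinder (version 2.2.4, per the file headers), with the intensity and local background of each spot in both dyes, not normalized. In a single file the local background was already taken off the intensities, and it was added back here before processing. The deposited files also give each spot's area, its quality marks and a quality score between 0 and 1, per the file headers. A deposited table holds the authors' log2 ratios, whose normalization is not given in the sources used here. Its direction matched sample over pool (correlation across probes 0.39 to 0.66, positive on all 32 arrays), its column medians were 0.04 to 0.19, and its scale and centring stay unknown. For 31 of the 32 arrays the column of the table correlated best with its own array. The exception was fat week 7 replicate 4, with a correlation of 0.39, and this array stayed in the fit. The deposited table served as an alternative.

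Here, intensities were divided by spot area and background-corrected (normexp, offset 50), and log2 ratios were normalized by loess within arrays (R 4.3.3, limma 3.58.1, statmod 1.5.0, matplotlib 3.10.9). Marked bad spots were left out. A probe was tested if usable on 3 arrays of each compared group and 2 of every other. The limma model had a mean for each of 8 groups and 22 residual degrees of freedom. Its tests were two-sided with Benjamini-Hochberg adjustment over all tested probes and a threshold of 0.05. The week 7 replicate 2 files of the 2 lines hold 1 scan (53.0% of spots with the same area and quality score, at most 0.792% in other pairs) and were left out, so 30 arrays were fitted. The code was tested on simulated data with independent noise, which does not mimic deviations shared between arrays.

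Symbols came from the platform table, updated through RefSeq gene identifiers for 98.6% of 10601 annotated probes. Of the tested probes, 8707 carry 1 symbol and 5743 none. No build was stated, so no positions are given. Named genes are the 10 per direction with the smallest p (none passed), every measured hormone, up to 4 examples per list by p and the 3 smallest p of the line difference. Members and lists were chosen with earlier results of these data known. Same-numbered fat arrays of weeks 3 and 5 deviated together (correlations 0.19, 0.37, 0.34 and 0.36). Since each exceeded 0.1, same-numbered pairs are described and the number served as a block in an alternative fit. The main model has no such term, so its p values, standard errors and intervals leave any pairing out. The largest correlations with another number were close to the same-number ones for replicates 1 (0.18) and 3 (0.31). They were lower for 2 and 4 (0.15 each), so a pairing is not established for replicates 1 and 3. The Spotfinder header day was the same within pairs 1, 2 and 4. P-values measure the spread between these arrays, whose number limits the precision.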

Additional observations from a re-analysis of the deposited data

Results flagged for a closer look

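In the groups of 4 arrays, 97 sets of values were searched for a single array far from the other 3, and 8 were found, where chance alone gives about 1 in 20. At week 5, MTMR12 stood at 4.43 on replicate 2 beside 0.31 to 0.73, and CAV2 at 4.91 on replicate 4 beside 0.30 to 0.71. GH was 0.22 on week 5 replicate 1 beside -0.87 to -0.70. SCG2 was 0.0832 on week 5 replicate 2 beside 0.34 to 0.38, and PBK was -0.17 on week 5 replicate 3 beside -0.03 to 0.00. At week 3, DRG1 was -0.11 on replicate 4 beside 0.10 to 0.12. A dimmer probe of APLP2, an amyloid precursor relative, was 0.0755 on week 3 replicate 3 beside 0.17 to 0.19. It was chosen after its values were seen. The median quality score of week 5 replicate 1 was 0.717, far from the 0.914 to 0.936 of the other week 5 arrays.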

How the results depend on the processing

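The count of probes past an adjusted p of 0.05 in the fat line was 0 with the 30 arrays fitted, and stayed at 0 with all 32 arrays, only the compared groups, only the fat line, the header day as a block, every other background correction and normalization tried, array weights, 1 probe per gene and the authors' deposited table. It was 1 with the replicate block, 2 without the dimmest 25% of probes and 1 (a probe too sparse for the main test) when 1 usable array per compared group sufficed. Leaving out an array or a replicate number gave 0 to 4. Chosen after seeing the data, week 3 replicate 2 and week 5 replicate 1 left out together gave 4, and the replicate block with array weights gave 2. The block brought no other probe past the adjusted threshold. At an unadjusted p under 0.05 it gave 423 probes, 304 of them among the 330, and 4 more list members. For the fat minus lean change the count was 0 throughout, with the replicate block too. Counts at an unadjusted p under 0.05 moved more, from 330 to 716 with scaling between arrays, 592 with bad spots kept, 534 with sparse probes, 509 with array weights and 777 with the block and weights together. They came to 190 for probes usable on every array, 171 without the dimmest probes, 115 in a separate fit of 1 probe per gene (109 genes in the main fit) and 203 without both replicate 1 arrays. For the difference they moved from 150 to 301, 377, 254 and 313 under the first 4 of these, 66, 52 and 40 under the same 3 smaller sets, and 237 with only the groups compared. Several of these settings tested another number of probes, such as 5680 with 1 probe per gene against 14450 in the main fit. A larger or smaller count there is thus not by itself a larger or smaller share.

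Every measured hormone except PRL changed sign in some settings. PRL stayed negative in all 31, from -0.498 to -0.0987. These settings reuse the same arrays, so the sign of PRL is no separate support for a change. TSHB was 0.11 with scaling and 0.084 in the authors' table, POMC -0.0296 with array weights and FSHB -0.0091 without both doubted arrays. Leaving out arrays gave -0.308 to 0.325 for TSHB, -0.353 to 0.196 for GH, -0.0245 to 0.154 for POMC, -0.0424 to 0.887 for FSHB and -0.0877 to 0.329 for CGA. List medians moved too when arrays were left out, from -0.127 to 0.00556 for interferon genes, -0.115 to 0.00137 for red blood cells, -0.0604 to 0.107 for glia, -0.0848 to -0.0168 for matrix, 0.0273 to 0.115 for ribosomal proteins and 0.0416 to 0.10 for cholesterol synthesis. The cause was not tested.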
